A study of Homo sapiens with 6 samples.

Results

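The comparison described here sets an HCT116 line that over-expressed the TEAD4 mutant K178R against the control HCT116 line. HCT116 is an established human colon carcinoma cell line, and K178R is the usual notation for a lysine of the TEAD4 protein changed to arginine. The comparison was made over the 2 libraries titled as TEAD4 K178R and the 2 libraries whose genotype label is control, 4 of the 6 libraries of the series. The other 2 libraries came from a line over-expressing wild type TEAD4. They shared the estimate of the spread and are used only to say where the K178R line differed from that line. The genotype field of 1 of them, replicate 2, names TEAD5, while its title names TEAD4. The members described are all genes that could be tested, 11445 of 20026 rows kept, each reaching 0.5 FPKM in 2 or more libraries. The labels give the cell line and the genotype of each library and no other agent. They do not say which vector or promoter drove the introduced gene, whether a line was a clone or a pool, or whether the libraries of 1 line were grown as separate cultures. What the p-values measure is therefore the spread between libraries alone, and that may be technical, and a difference between lines cannot be told apart from other differences between 2 separately made lines.

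TEAD proteins are transcription factors that bind DNA through the TEA domain but hold little activating capacity of their own. They recruit the coactivators YAP1 and TAZ (gene WWTR1), which the kinases of the Hippo pathway, STK3 and STK4 with LATS1 and LATS2, keep phosphorylated and out of the nucleus. VGLL proteins bind the same surface of TEAD and compete with the coactivators. In epithelial cells the TEAD and YAP1 complex is known for driving genes of growth, adhesion and matrix, often at enhancers shared with AP-1, the dimeric factor of FOS and JUN proteins.

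Values are FPKM, fragment counts scaled by transcript length and by the size of the library, and log2 differences are on the scale log2(FPKM + 1), which understates changes of genes with low values. The sum of all FPKM per library lay between 283195 and 305329, and the depth of the libraries relative to control replicate 1, read from the steps between low values, between 0.915 and 1.05. The number of reads is unknown. Across 9952 genes Pearson's r of log2 FPKM was 0.998 between the libraries of each line and 0.990 between control and K178R, genes not being independent replicates. Epithelial markers summed to 2718 and 2672 FPKM in the control libraries and to 2889 and 2921 FPKM in the K178R libraries. Of the 15, 6 were under 0.1 FPKM in all 4 libraries, CDX1 and CEACAM5 at 0 and VIL1, LGALS4, CDH17 and GPA33. Of the 9 epithelial markers tested, KRT8, KRT18, KRT20 and CDH1 were higher and KRT19 lower (median log2 -0.01). Fibroblast markers summed to 1.76 and 1.53 FPKM in the control and 1.90 and 1.73 FPKM in the K178R libraries, with 5 of 10 at 0 in all 4 (COL1A2, DCN, LUM, FAP and POSTN). Endothelial markers summed to 2.15 and 2.03 against 1.38 and 1.53 FPKM, with CLDN5 and EMCN at 0. Leukocyte markers summed to 4.53 and 4.86 against 2.86 and 3.30 FPKM, with PTPRC, CD3E, CD3D, MS4A1 and LCP2 at 0. Among the markers of these other cell types, COL1A1, ESAM, CD68 and CORO1A passed the filter. CD68, a lysosomal membrane protein also made outside leukocytes, was lower in the K178R line (log2 -0.95, SE 0.07, adjusted p = 1.9e-04). ESAM was called lower and CORO1A higher, with adjusted p of 0.057 to 0.13 and 0.023 to 0.18 over the 4 fits without 1 library. The part of these markers in the results that follow was not tested.

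In the K178R line 1342 genes were higher than in the control line, 11.7% of the genes tested, and 1268 were lower, 11.1% (limma on log2(FPKM + 1), two-sided, Benjamini-Hochberg adjusted p under 0.05). The remaining 8835 genes were not called. Most of the changes were small. The median log2 difference was 0.27 among the genes called higher and -0.22 among those called lower, against 0.0025 over all genes tested. At an absolute log2 difference of 0.5 or more there were 187 genes higher and 147 lower. At 1 or more there were 38 higher, 0.332% of the genes tested, and 26 lower, 0.227%, and at 2 or more 4 in each direction. FHL1, SYTL2, BAMBI and TEAD4 were the 4 that were higher, and U2AF1, BMP4, MTUS1 and PDE4B the 4 that were lower. Leaving out control replicate 1, control replicate 2, K178R replicate 1 or K178R replicate 2 left 736, 732, 798 and 738 genes higher and 635, 664, 734 and 731 lower. Where 4 counts are given below for fits without 1 library, they follow that order. Percentages in parentheses beside the counts of a gene list are the shares of its tested members called higher and then lower. They are to be set beside 11.7% and 11.1% of all genes tested. Where a gene is given by pairs of values, replicate 1 comes before replicate 2 and the control line before the K178R line. Where the K178R line is set against the wild type line, the log2 value is K178R minus wild type in the same fit. For every gene given by library and called below, both K178R libraries lay on the same side of both control libraries. A gene under 0.5 FPKM in both libraries of 1 of these lines passed the filter only through other lines. For such a gene a difference was in part built into its selection.

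**Figure D1:**
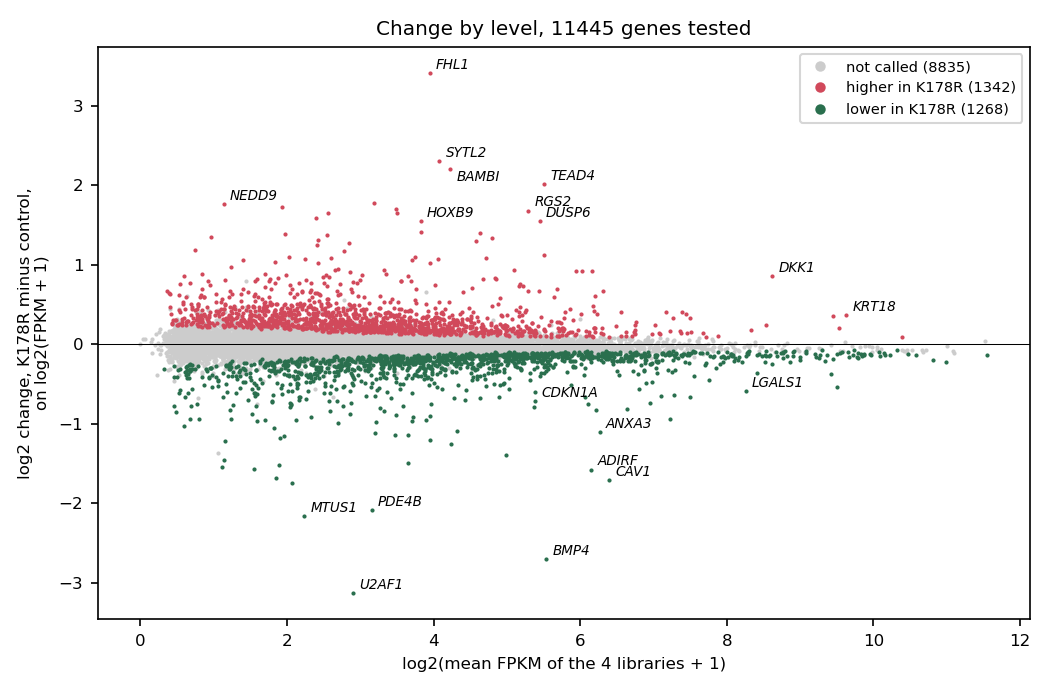
Change between the K178R and control lines by expression level. Each point is 1 of the 11445 genes tested, with log2 of the mean FPKM of the 4 libraries plus 1 on the horizontal axis and the log2 difference, K178R minus control, on the vertical axis; 1342 genes called higher are red, 1268 called lower are green and 8835 not called are grey, and most called genes lie close to 0.

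TEAD4, the over-expressed gene, stood at 16.6 and 17.5 FPKM in the control libraries and 71.2 and 72.3 FPKM in the K178R libraries. Both K178R libraries lay above both control libraries (log2 2.01, SE 0.03, adjusted p = 2.1e-07), and the mean was 4.21 times the control mean. FPKM does not separate the introduced from the cell's own TEAD4 transcripts, and no value shows the mutation itself. Among the 8 TEAD factors and cofactors tested, 2 rose, TEAD4 and VGLL1, and 2 fell, TEAD1 and WWTR1 (25% and 25%). TEAD1, the family member whose level was closest to that of TEAD4 in the control line, fell from 18.7 and 18.4 FPKM in the control to 11 and 10.2 FPKM in the K178R libraries (log2 -0.75, SE 0.04, adjusted p = 3.3e-05). WWTR1, which encodes the coactivator TAZ, went from 5.84 and 5.83 FPKM to 3.42 and 3.55 FPKM (log2 -0.61, SE 0.05, adjusted p = 1.8e-04). It was also lower than in the wild type line, which held 4.48 and 4.39 FPKM (log2 -0.28, adjusted p = 0.0031). VGLL1, a cofactor that binds TEAD in place of the coactivators, was at 0.0404 and 0 FPKM in the control and 0.652 and 0.551 FPKM in the K178R libraries (log2 0.65, SE 0.10, adjusted p = 0.0042), and it passed the filter only through the K178R line, so that a difference was built into its selection. The coactivator YAP1 was at 24.9 and 25.2 FPKM in the control and 22.6 and 23.5 FPKM in the K178R libraries, with an adjusted p of 0.053. It passed the threshold after median-of-ratios or upper-quartile scaling. TEAD2, TEAD3 and VGLL4 did not pass the test (log2 0.05, -0.15 and -0.08).

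The list of YAP/TEAD target genes held 17 tested members, of which 9 were higher and 3 lower (52.9% and 17.6%, median log2 0.29). The largest rise was that of F3, tissue factor, the cell surface starter of coagulation. It stood at 26.9 and 28.2 FPKM in the control libraries and 59.1 and 63 FPKM in the K178R libraries, with both K178R libraries above both controls (log2 1.12, SE 0.04, adjusted p = 5.0e-06). DOCK5, an exchange factor for the GTPase RAC, rose from 7.84 and 8.08 FPKM to 15.1 and 15.3 FPKM (log2 0.85, SE 0.04, adjusted p = 1.6e-05). CRIM1, a membrane protein that binds BMPs, rose from 3.7 and 4.1 FPKM to 7.27 and 7.29 FPKM (log2 0.76, SE 0.06, adjusted p = 2.1e-04). These 3 genes were also higher in the K178R than in the wild type line (F3 log2 0.99, adjusted p = 2.1e-05; DOCK5 log2 0.80, adjusted p = 3.7e-05; CRIM1 log2 0.62, adjusted p = 3.8e-04). ASAP1, a GTPase-activating protein of ARF proteins, rose by less (log2 0.45, SE 0.05, adjusted p = 0.0013). The 3 members that fell were AXL, a receptor tyrosine kinase, GADD45B, a stress-induced protein, and CYR61, a matrix-associated protein often read as a YAP1 reporter. AXL went from 14.4 and 13.9 FPKM to 7.74 and 8.0 FPKM (log2 -0.77, SE 0.04, adjusted p = 3.5e-05). GADD45B went from 7.27 and 7.0 FPKM to 4.4 and 4.89 FPKM (log2 -0.53, SE 0.06, adjusted p = 0.0013). CYR61 went from 5.03 and 5.26 FPKM to 3.8 and 4.0 FPKM (log2 -0.33, SE 0.05, adjusted p = 0.006). CTGF and ANKRD1, the other usual reporters, did not pass the filter and lay at 0.682 and 0.469 FPKM against 0.424 and 0.391 FPKM and at 0 and 0.0903 FPKM against 0.151 and 0.117 FPKM. In the wild type line 5 members of the list were higher than control and 7 lower, where 37.6% of all genes tested were higher and 12.2% lower, in a comparison that uses the same control libraries. The calls for the wild type line depend on scaling. Median-of-ratios scaling moved its median over all genes from 0.09 to -0.0081 and its calls from 4309 higher and 1402 lower to 2572 and 2884, and the list then had 3 higher and 8 lower.

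Of 26 Hippo kinases and adaptors tested, 4 were called higher (TNIK, FRMD6, STK3 and TAOK3) and 2 lower (WWC3 and WWC1), with a median log2 of 0.00. The shares were 15.4% and 7.69%, against 11.7% and 11.1% of all genes tested. TNIK, a kinase of the germinal centre family that also serves Wnt signalling, rose from 3.03 and 2.77 FPKM to 7.19 and 7.34 FPKM (log2 1.08, SE 0.05, adjusted p = 1.7e-05). The other 5 calls were small, and each ended in at least 1 fit without a library. Without 1 library 2, 2, 1 and 2 members were called higher and 0, 0, 0 and 1 lower.

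The 15 largest rises on the log2 scale were led by FHL1, a protein of LIM domains found at actin fibres and in the nucleus. FHL1 stood at 1.69 and 1.62 FPKM in the control libraries and 27.2 and 27.3 FPKM in the K178R libraries, 16.5 times the control mean (log2 3.41, SE 0.04, adjusted p = 4.3e-08). The wild type line was between the 2, at 11.7 and 11.3 FPKM, and the K178R line exceeded it (log2 1.18, adjusted p = 1.0e-05). SYTL2, which tethers vesicles that carry RAB27, rose from 5.0 and 4.37 FPKM to 26.5 and 27.6 FPKM (log2 2.31, SE 0.06, adjusted p = 1.0e-06). BAMBI, a decoy receptor that damps TGF-beta signals, rose from 5.44 and 5.91 FPKM to 29.99 and 29.6 FPKM (log2 2.21, SE 0.06, adjusted p = 1.1e-06). For both, the K178R libraries lay clear of the control libraries. GLRX, glutaredoxin, which reduces protein thiols, rose from 2.85 and 3.44 FPKM to 13 and 13.2 FPKM (log2 1.77, SE 0.07, adjusted p = 6.4e-06). TMEM200A, a membrane protein, rose from 4.35 and 4.56 FPKM to 15.9 and 16.4 FPKM (log2 1.65, SE 0.04, adjusted p = 1.1e-06). ARSK, a lysosomal sulfatase, rose from 2.08 and 1.64 FPKM to 7.56 and 8.38 FPKM (log2 1.65, SE 0.08, adjusted p = 1.6e-05). BAMBI and GLRX were not called different from the wild type line, while ARSK was higher than there (log2 0.55, adjusted p = 0.0018). NEDD9, a docking protein of focal adhesions, was at 0 and 0.00744 FPKM in the control, 0.605 and 0.605 FPKM in the wild type and 2.31 and 2.5 FPKM in the K178R libraries (log2 1.76, SE 0.06, adjusted p = 3.9e-06). DCLK1, a kinase bound to microtubules, followed the same order of lines at 0.0137 and 0.0227 FPKM, 0.173 and 0.217 FPKM and 1.4 and 1.25 FPKM (log2 1.19, SE 0.07, adjusted p = 3.4e-05). Both were under 0.1 FPKM in the control line and above 1 FPKM in the K178R line. DCLK1 passed the filter only through the K178R line and NEDD9 only through the 2 lines with added TEAD4. A difference from control was thus built into the selection of both. The hair keratin-associated genes KRTAP3-1 and KRTAP2-3 stood at 0.722 and 0.838 FPKM against 5.18 and 4.6 FPKM and at 4.12 and 4.41 FPKM against 15.6 and 16.6 FPKM. They belong to families with near-identical copies, so their values are uncertain.

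The 15 largest falls were led by U2AF1, whose control libraries differed widely, at 19.6 and 5.71 FPKM, while the K178R libraries held 0.371 and 0.312 FPKM. The gene U2AF1 was lower by log2 -2.32 without control replicate 1 and by -3.94 without control replicate 2, and newer genome builds hold a near-identical copy of it. BMP4, a secreted ligand of the BMP receptors, was the next. It stood at 79.3 and 79.6 FPKM in the control libraries and 12.1 and 10.7 FPKM in the K178R libraries, and both lines with added TEAD4 lay far below the control (log2 -2.70, SE 0.07, adjusted p = 1.1e-06), the wild type line at 10.9 and 9.59 FPKM. MTUS1, a microtubule-associated protein, fell from 6.94 and 6.5 FPKM to 0.711 and 0.728 FPKM (log2 -2.17, SE 0.06, adjusted p = 1.5e-06) and was lower than in the wild type line (log2 -0.70, adjusted p = 2.5e-04). RUNX2, the transcription factor of bone formation, fell from 2.07 and 2.38 FPKM to 0.122 and 0.0967 FPKM (log2 -1.54, SE 0.07, adjusted p = 1.2e-05). ABCC2, an efflux pump for conjugated drugs and bilirubin, fell from 17.6 and 17.6 FPKM to 5.93 and 5.32 FPKM (log2 -1.49, SE 0.06, adjusted p = 5.0e-06). ADGRF1, an adhesion receptor coupled to G proteins, fell from 2.22 and 2.27 FPKM to 0.171 and 0.191 FPKM (log2 -1.46, SE 0.09, adjusted p = 5.7e-05). In each of these the libraries of the 2 lines did not overlap. ADIRF, a small protein first described in fat cells, was among the more abundant genes that fell, from 109 and 102 FPKM to 33.7 and 35.7 FPKM (log2 -1.58, SE 0.04, adjusted p = 1.0e-06). It was lower than in the wild type line, which held 65.9 and 66.8 FPKM (log2 -0.92, adjusted p = 2.1e-05). LGALS7B, a galectin gene of stratified epithelia with a near-identical copy, stood at 1.06 and 1.02 FPKM in the control and was listed at 0 in both K178R libraries.

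**Figure D2:**
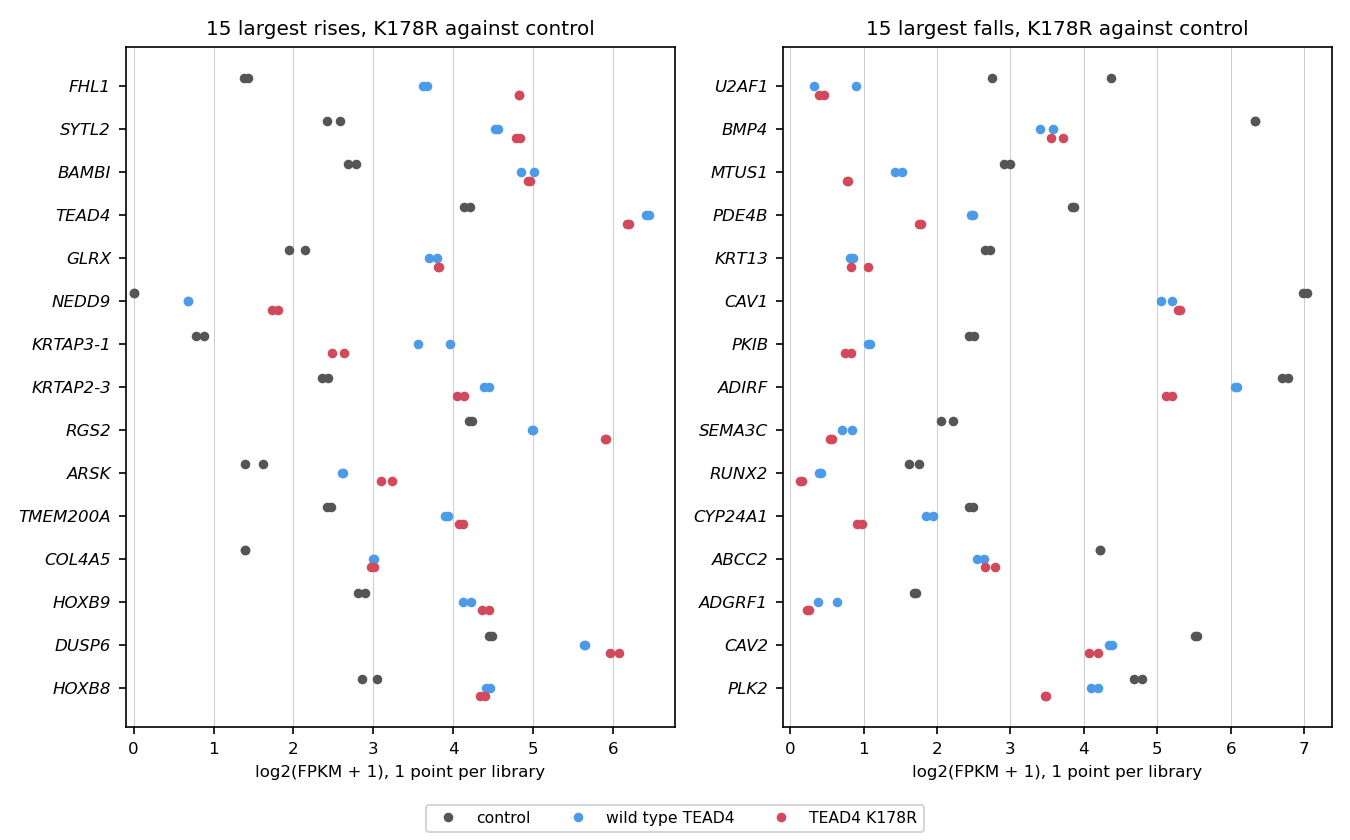
Expression of the 15 genes with the largest rises and the 15 with the largest falls. Each point is 1 library (grey control, blue wild type TEAD4, red K178R) on the scale log2(FPKM + 1); FHL1 in the K178R line lies above both other lines, BMP4 is low in both lines with added TEAD4, and the control libraries of U2AF1 lie far apart.

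The promoters of the genes that moved most were read for the letters that TEAD factors are known to bind. Windows of 300 bases, from 250 before to 50 after the start of the gene, were taken from RefSeq on GRCh38.p14 for the 9086 genes tested that matched by symbol. The hexamer GGAATG, on either strand, was in 963 of them (10.6%). It was in 4 of 28 matched promoters of the 38 genes higher by log2 1 or more (14.3%: COL12A1, DCLK1, GLRX and KRTAP3-1) and in 2 of 20 of the 26 genes lower by as much (10%: ADGRF1 and PRF1). The AP-1 letters TGANTCA on either strand, overlaps with a TEAD hexamer allowed, were in 388 of 9086 promoters (4.27%). They were in 2 of 28 of the promoters of the genes that rose (7.14%: DCLK1 and F3) and in 3 of 20 of those that fell (15%: LGALS7B, RUNX2 and S100A2). A match is a run of letters, and no binding was measured. The 3 matches among the 15 largest rises and the 15 largest falls are shown as the 250 bases before the start, 5′ to 3′ on the strand of the gene, with the hexamer or its reverse complement CATTCC in capitals. GLRX lies at chr5:95822727-95822976, KRTAP3-1 at chr17:41009129-41009378 and ADGRF1 at chr6:47042333-47042582, each on the minus strand.
GLRX: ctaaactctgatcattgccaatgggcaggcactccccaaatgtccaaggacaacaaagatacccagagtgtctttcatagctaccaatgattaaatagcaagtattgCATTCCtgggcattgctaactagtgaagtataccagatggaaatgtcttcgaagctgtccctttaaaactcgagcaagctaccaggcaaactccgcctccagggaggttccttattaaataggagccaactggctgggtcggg
KRTAP3-1: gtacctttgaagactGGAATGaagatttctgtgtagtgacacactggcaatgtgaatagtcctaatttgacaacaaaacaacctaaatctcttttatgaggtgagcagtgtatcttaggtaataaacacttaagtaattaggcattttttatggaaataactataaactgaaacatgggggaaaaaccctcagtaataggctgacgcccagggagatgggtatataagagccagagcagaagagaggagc
ADGRF1: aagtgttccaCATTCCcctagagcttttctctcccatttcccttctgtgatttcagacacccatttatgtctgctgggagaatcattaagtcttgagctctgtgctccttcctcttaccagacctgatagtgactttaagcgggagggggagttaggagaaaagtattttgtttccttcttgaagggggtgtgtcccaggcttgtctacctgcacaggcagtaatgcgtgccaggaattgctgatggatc

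In 4 pairs of neighbouring coding genes both changed by log2 1 or more in the same direction. They were HOXB5 with HOXB6 and HOXB8 with HOXB9 on chromosome 17, RHOBTB3 with GLRX on chromosome 5, and CAV2 with CAV1 on chromosome 7. The HOXB cluster encodes homeobox factors that set position along the body axis. It was looked at after these values had been seen, so its counts are a description. Of 9 HOXB genes tested, 8 were called higher and 0 lower (88.9% and 0%, median log2 0.94), with 0 lower at an unadjusted p under 0.05. HOXB9 rose from 6.02 and 6.42 FPKM to 19.5 and 20.9 FPKM (log2 1.55, SE 0.05, adjusted p = 3.0e-06). HOXB8 rose from 7.26 and 6.27 FPKM to 19.1 and 20.1 FPKM (log2 1.41, SE 0.06, adjusted p = 1.0e-05). HOXB4 rose from 5.5 and 6.33 FPKM to 12.4 and 12 FPKM (log2 0.94, SE 0.08, adjusted p = 3.7e-04). In the most abundant, HOXB7, the step was smaller, from 28.9 and 25 FPKM to 46.8 and 43.8 FPKM (log2 0.73, SE 0.06, adjusted p = 3.3e-04). HOXB13, which lies apart from the rest of the cluster, was not called (log2 0.21, adjusted p = 0.25), and HOXB2 was at 0.585 and 0.309 FPKM against 1.03 and 0.886 FPKM, with an adjusted p of 0.015 to 0.097 over the fits without 1 library. The wild type line had 9 of the 9 called higher (median log2 0.79), where 37.6% of all genes tested were higher. After median-of-ratios scaling 8 were called higher there (median log2 0.68). RHOBTB3, an ATPase that acts at the Golgi, rose from 14.9 and 14.5 FPKM to 38.7 and 38.8 FPKM (log2 1.34, SE 0.03, adjusted p = 1.0e-06).

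**Figure D3:**
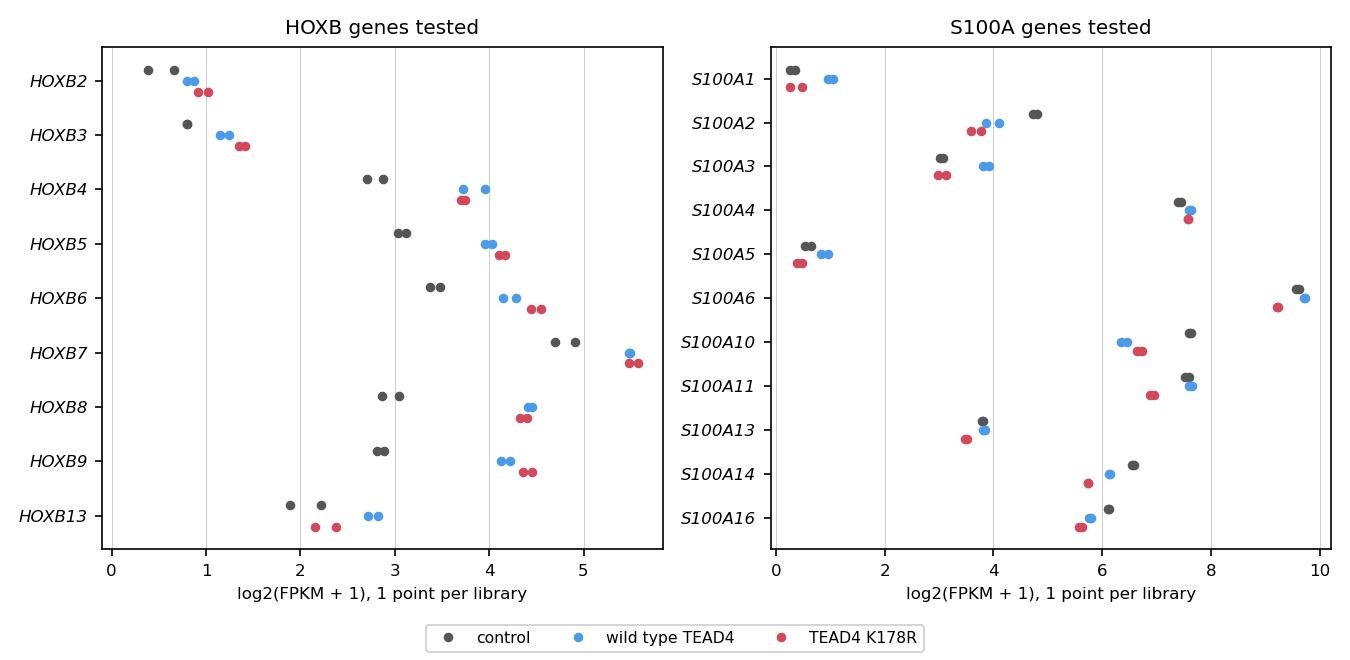
HOXB genes (left) and S100A genes (right) by library. Each point is 1 library on the scale log2(FPKM + 1) (grey control, blue wild type TEAD4, red K178R); both lines with added TEAD4 lie above the control for HOXB3 to HOXB9, while S100A6, S100A11 and S100A13 are low in the K178R line alone.

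EGF receptor ligands rose and the receptor itself fell. Of 9 ligands and receptors tested 6 were called higher and 1 lower (66.7% and 11.1%, median log2 0.38). The abundant ligands were AREG, amphiregulin, at 149 and 149.9 FPKM in the control libraries and 192 and 199 FPKM in the K178R libraries (log2 0.38, SE 0.03, adjusted p = 9.4e-05), and EREG, epiregulin, which rose from 143 and 144 FPKM to 189 and 193 FPKM (log2 0.41, SE 0.02, adjusted p = 3.3e-05). HBEGF rose from 2.5 and 2.62 FPKM to 4.68 and 4.67 FPKM (log2 0.67, SE 0.07, adjusted p = 6.8e-04). BTC, betacellulin, rose from 0.696 and 0.648 FPKM to 1.3 and 1.13 FPKM (log2 0.40, SE 0.07, adjusted p = 0.0073). EPGN, epigen, was near 0 in the control at 0.0781 and 0.123 FPKM and stood at 1.58 and 2.02 FPKM in the K178R libraries (log2 1.34, SE 0.08, adjusted p = 4.8e-05), below the 4.33 and 4.46 FPKM of the wild type line (log2 -0.95, adjusted p = 2.4e-04). EPGN passed the filter only through the 2 lines with added TEAD4, so that a difference from control was built into its selection. TGFA was called higher by little (log2 0.21, SE 0.05, adjusted p = 0.016), with an adjusted p of 0.025 to 0.092 in the fits without 1 library. EGFR fell from 5.07 and 5.31 FPKM to 3.49 and 3.76 FPKM (log2 -0.42, SE 0.05, adjusted p = 0.0019), with no overlap between the lines. ERBB2 and ERBB3 did not pass the test (log2 0.07 and 0.15). Against the same controls, the wild type line had 8 of the 9 higher and 1 lower (median log2 0.51). After median-of-ratios scaling it had 7 and 1. Before that scaling 37.6% of all genes tested were higher and 12.2% lower in that line.

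Genes that ERK signalling induces, some of which feed back on it, moved in both directions. Of 18 such genes tested, 6 were higher and 3 lower (33.3% and 16.7%, median log2 0.11). DUSP6, the phosphatase that switches off ERK in the cytoplasm, stood at 21.5 and 20.9 FPKM in the control libraries and 61.4 and 66.5 FPKM in the K178R libraries (log2 1.55, SE 0.04, adjusted p = 1.1e-06) and was higher than in the wild type line (log2 0.38, adjusted p = 5.3e-04). DUSP4, the related nuclear phosphatase, rose from 8.73 and 8.83 FPKM to 12.2 and 12.4 FPKM (log2 0.44, SE 0.04, adjusted p = 2.1e-04) and stayed well below the 23 and 22.5 FPKM of the wild type line (log2 -0.84, adjusted p = 2.1e-05). The ETS factor ETV5 rose (log2 0.41, SE 0.04, adjusted p = 9.1e-04) and its relative ETV1 fell from 4.08 and 4.26 FPKM to 1.31 and 1.28 FPKM (log2 -1.17, SE 0.05, adjusted p = 1.1e-05). ETV1 was lower than in the wild type line too (log2 -0.68, adjusted p = 1.7e-04). CCND1, cyclin D1, fell from 189.8 and 197 FPKM to 163 and 164 FPKM (log2 -0.24, SE 0.03, adjusted p = 8.5e-04). The third call lower, SPRY4, had an adjusted p of 0.052 to 0.21 in the fits without 1 library.

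Of 23 AP-1 and immediate early genes tested, 9 were higher and 5 lower (39.1% and 21.7%, median log2 0.14). EGR1, a zinc finger factor induced within minutes of growth factor stimulation, rose from 8.88 and 9.68 FPKM to 19.5 and 20.04 FPKM (log2 1.02, SE 0.06, adjusted p = 3.4e-05), above the wild type line as well (log2 0.77, adjusted p = 1.5e-04). NR4A1, a nuclear receptor of the same early response, rose from 2.65 and 2.54 FPKM to 4.67 and 4.69 FPKM (log2 0.66, SE 0.05, adjusted p = 1.4e-04), and MYC rose from 58.5 and 59.6 FPKM to 82.7 and 83 FPKM (log2 0.48, SE 0.03, adjusted p = 2.2e-05). The AP-1 subunits FOSL1 and FOSL2 fell, FOSL1 from 49.5 and 52.2 FPKM to 38.5 and 41.6 FPKM (log2 -0.34, SE 0.05, adjusted p = 0.004). FOSL2 fell from 5.76 and 5.58 FPKM to 4.19 and 4.29 FPKM (log2 -0.35, SE 0.05, adjusted p = 0.0024). KLF4, a factor of epithelial differentiation, fell from 6.07 and 5.09 FPKM to 2.39 and 2.55 FPKM (log2 -0.92, SE 0.08, adjusted p = 3.9e-04). JUND was called lower, with an adjusted p of 0.018 to 0.13 in the fits without 1 library, and KLF10 (23.1 and 22.7 FPKM against 20.6 and 20.9 FPKM), the other member called lower, with 0.075 to 0.12. Without 1 library 6, 6, 5 and 6 members were higher and 4, 4, 3 and 4 lower. The subunit JUN did not pass the test (log2 -0.04).

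**Figure D4:**
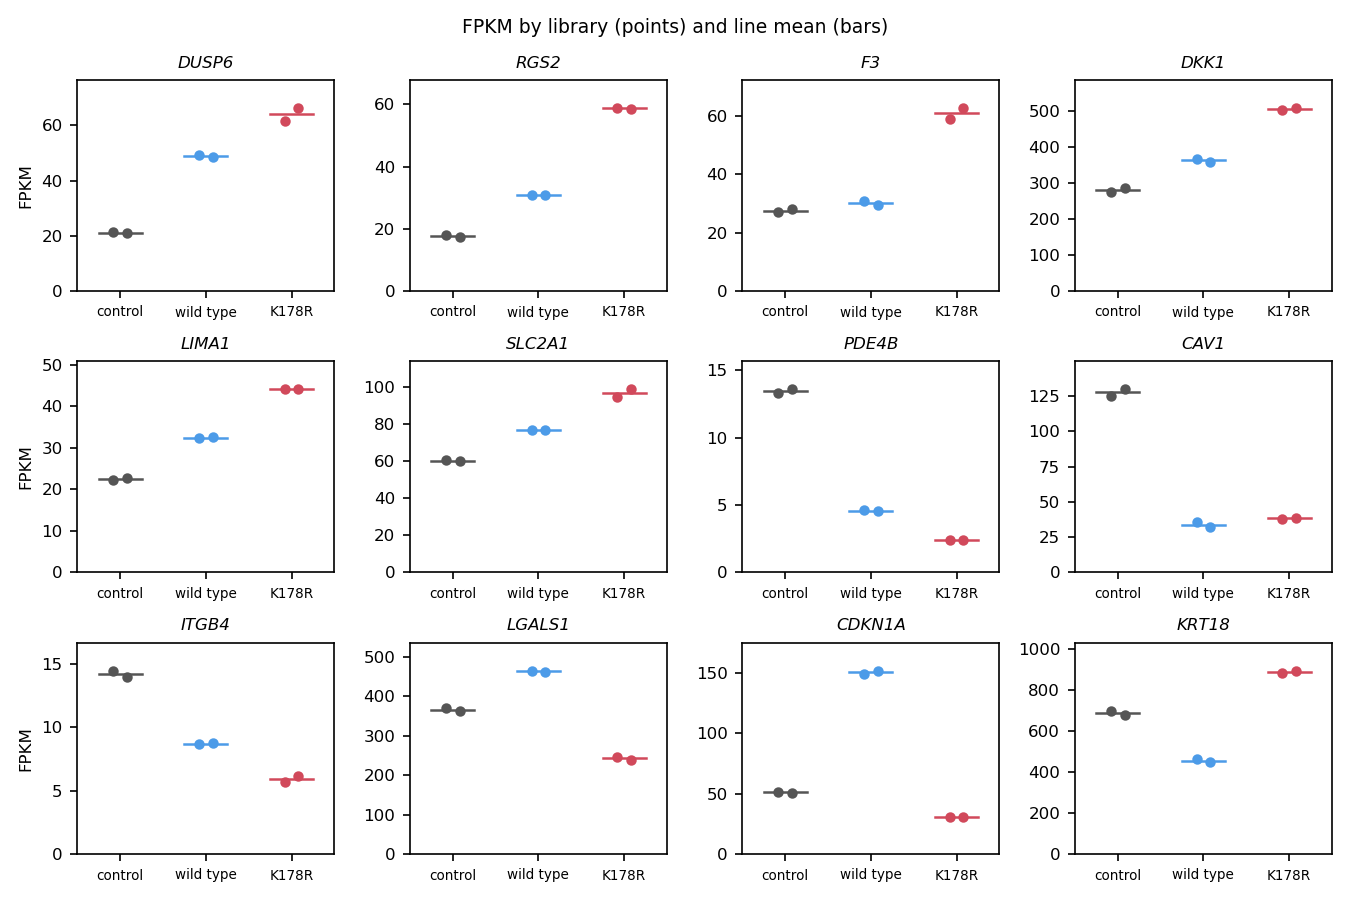
FPKM of 12 genes in the 3 lines. Points are libraries and bars are line means, on a linear axis from 0 in each panel; F3, DKK1 and LIMA1 are highest in the K178R line, CAV1 is low in both lines with added TEAD4, and CDKN1A, LGALS1 and KRT18 lie on opposite sides of the control in the 2 lines.

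In the BMP and TGF-beta list 7 of 26 genes tested were higher and 4 lower (median log2 0.08), with BAMBI and BMP4 at the 2 ends. These were 26.9% and 15.4% of the tested members, against 11.7% and 11.1% of all genes tested. TGFBR3, betaglycan, which presents TGF-beta to its receptor, rose from 2.93 and 2.8 FPKM to 5.05 and 5.14 FPKM (log2 0.66, SE 0.07, adjusted p = 7.5e-04), while TGFBR2, the receptor kinase, fell from 6.43 and 5.9 FPKM to 4.02 and 3.97 FPKM (log2 -0.52, SE 0.06, adjusted p = 9.5e-04). SMAD3, a signal carrier of the pathway, rose from 10.1 and 9.81 FPKM to 13.6 and 13.8 FPKM (log2 0.43, SE 0.04, adjusted p = 5.5e-04). The other 2 calls lower were SMAD7 and ID1, with adjusted p of 0.073 to 0.099 and 0.064 to 0.1 in the fits without 1 library.

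Among 14 Wnt targets and feedback genes tested, 4 were higher and 5 lower (28.6% and 35.7%, median log2 -0.06). DKK1, a secreted inhibitor of Wnt receptors, showed the largest rise in FPKM of any gene called, from 274 and 285 FPKM to 502 and 510.4 FPKM (log2 0.85, SE 0.03, adjusted p = 2.4e-06), and also exceeded the wild type line (log2 0.48, adjusted p = 5.0e-05). SOX9, a factor of crypt progenitor cells, fell from 9.17 and 9.49 FPKM to 5.16 and 6.07 FPKM (log2 -0.65, SE 0.07, adjusted p = 7.4e-04). The wild type line lay on the other side of the control, at 13.2 and 12.6 FPKM (log2 -1.07, adjusted p = 7.8e-05). CD44, the hyaluronan receptor, fell from 33.9 and 33.6 FPKM to 26.2 and 26.5 FPKM (log2 -0.35, SE 0.03, adjusted p = 3.6e-04). The other calls were MYC and BMP4, given above, EPHB2 and EPHB3, both higher with adjusted p of 0.056 to 0.082 and 0.042 to 0.055 in the fits without 1 library, and NOTUM and RNF43, both lower, with 0.028 to 0.052 and 0.019 to 0.057. RNF43 stood at 5.0 and 4.58 FPKM against 3.77 and 3.74 FPKM. Without 1 library 3, 2, 3 and 3 members of the list were higher and 3, 5, 5 and 5 lower.

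Caveolae are flask-shaped pits of the plasma membrane coated by caveolins, and annexins are proteins that bind membranes with calcium. Of 16 genes tested in this group 10 fell and 2 were called higher (12.5% higher and 62.5% lower, median log2 -0.23). CAV1 stood at 125 and 129.9 FPKM in the control libraries and 37.9 and 38.8 FPKM in the K178R libraries (log2 -1.71, SE 0.05, adjusted p = 1.3e-06) and CAV2, its partner, fell from 44.8 and 45.5 FPKM to 15.8 and 17.3 FPKM (log2 -1.40, SE 0.05, adjusted p = 2.6e-06). ANXA1 fell from 154 and 154 FPKM to 92.9 and 91.1 FPKM (log2 -0.74, SE 0.02, adjusted p = 2.9e-06). ANXA3 fell from 105 and 104 FPKM to 49.1 and 46.7 FPKM (log2 -1.11, SE 0.04, adjusted p = 4.0e-06), less far than in the wild type line, which held 22.1 and 20.7 FPKM (log2 1.12, adjusted p = 1.1e-05). ANXA6 rose (log2 0.42, SE 0.04, adjusted p = 6.3e-04), and PACSIN2, the other member called higher, had an adjusted p of 0.042 to 0.17 in the fits without 1 library. Among the falls, those of ANXA4, ANXA10 and EHD2 were small (log2 -0.22, -0.22 and -0.24), and each lost its call in at least 1 fit without 1 library. The wild type line, measured against the same controls, had 11 of the 16 lower and 3 higher, or 12 and 1 after median-of-ratios scaling.

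S100A proteins are small calcium-binding partners of annexins and of the cytoskeleton, and this group too was chosen after its values had been seen. Of 11 tested 7 were called lower and 1 higher (9.09% higher and 63.6% lower, median log2 -0.37). S100A10, which forms a complex with annexin A2, fell from 194 and 197 FPKM to 98.5 and 105 FPKM (log2 -0.93, SE 0.04, adjusted p = 1.2e-05). S100A2 fell from 26.8 and 25.4 FPKM to 12.6 and 11 FPKM (log2 -1.09, SE 0.09, adjusted p = 1.9e-04). S100A14 fell from 92.9 and 94.5 FPKM to 52.3 and 52.5 FPKM (log2 -0.83, SE 0.03, adjusted p = 2.3e-06). S100A11 fell from 192 and 183 FPKM to 117 and 123 FPKM (log2 -0.64, SE 0.04, adjusted p = 4.0e-05), while the wild type line stood at 192 and 200.04 FPKM, so the lines differed (log2 -0.70, adjusted p = 3.9e-05). S100A6, among the most abundant of all, fell from 783 and 755 FPKM to 591 and 598 FPKM (log2 -0.37, SE 0.02, adjusted p = 7.7e-05). S100A4 was the member called higher, with an adjusted p of 0.014 to 0.051 in the fits without 1 library. LGALS1, the galectin that binds galactosides at the cell surface, fell as well, from 370.0 and 363 FPKM to 246 and 239.5 FPKM (log2 -0.59, SE 0.02, adjusted p = 5.9e-06), against 466 and 462 FPKM in the wild type line (log2 -0.93, adjusted p = 3.9e-06).

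Keratins, the intermediate filament proteins of epithelia, divided. Of 11 tested 4 were higher and 5 lower (36.4% and 45.5%, median log2 -0.10). KRT18, which pairs with KRT8 in simple epithelia, rose from 700.2 and 681 FPKM to 883 and 897 FPKM (log2 0.37, SE 0.03, adjusted p = 1.1e-04) where the wild type line stood at 464 and 449 FPKM (log2 0.96, adjusted p = 3.9e-06). KRT8 moved by little (log2 0.09), and its adjusted p was 0.096 to 0.15 in the fits without 1 library. KRT20, a marker of differentiated colon epithelium, rose from 1.09 and 1.5 FPKM to 3.25 and 3.22 FPKM (log2 0.89, SE 0.15, adjusted p = 0.0057), and KRT23 rose from 3.47 and 3.53 FPKM to 4.53 and 4.52 FPKM (log2 0.30, SE 0.05, adjusted p = 0.0073). KRT13, a keratin of stratified epithelia, fell from 5.31 and 5.61 FPKM to 1.08 and 0.775 FPKM (log2 -1.75, SE 0.08, adjusted p = 1.2e-05), and KRT7 fell from 11.7 and 12 FPKM to 6.4 and 5.93 FPKM (log2 -0.84, SE 0.06, adjusted p = 1.1e-04), less far than in the wild type line (log2 0.89, adjusted p = 9.8e-05). KRT80 fell (log2 -0.55, SE 0.06, adjusted p = 7.9e-04). KRT19 fell too (log2 -0.23, SE 0.03, adjusted p = 0.003), and the fifth, KRT81, had an adjusted p of 0.093 to 0.11 in the fits without 1 library.

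Of 25 junction genes tested, 8 were higher and 4 lower (32% and 16%, median log2 0.06). The tight junction protein OCLN, occludin, rose from 3.77 and 3.65 FPKM to 6.01 and 5.93 FPKM (log2 0.56, SE 0.06, adjusted p = 6.8e-04). CTNNA1, alpha-catenin, which ties cadherins to actin, rose from 45.2 and 45.6 FPKM to 55.1 and 55.3 FPKM (log2 0.28, SE 0.03, adjusted p = 4.8e-04). DSC2, desmocollin, fell from 6.83 and 6.59 FPKM to 3.28 and 3.34 FPKM (log2 -0.84, SE 0.06, adjusted p = 1.1e-04). JUP, plakoglobin, fell from 38.3 and 38.7 FPKM to 34.5 and 34.2 FPKM (log2 -0.16, SE 0.03, adjusted p = 0.0062). CTNND1, a catenin bound to the cadherin tail, fell from 29.8 and 31.1 FPKM to 26.5 and 26 FPKM (log2 -0.21, SE 0.03, adjusted p = 0.005). DSG2, the fourth, had an adjusted p of 0.041 to 0.058 in the fits without 1 library. CDH1, E-cadherin, was called higher by little (log2 0.18), with an adjusted p of 0.089 to 0.13 in those fits. Without 1 library 4, 5, 5 and 4 members of the list were higher.

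Of 35 actin and contractile genes 14 fell and 6 rose (17.1% higher and 40% lower, median log2 -0.08). LIMA1, which bundles actin filaments, rose from 22.3 and 22.8 FPKM to 44.1 and 44.1 FPKM (log2 0.94, SE 0.03, adjusted p = 2.3e-06) and above the wild type line (log2 0.43, adjusted p = 1.0e-04). TAGLN2, a calponin family protein, fell from 80.5 and 82.1 FPKM to 50.7 and 50.8 FPKM (log2 -0.67, SE 0.03, adjusted p = 1.2e-05). TNNC1, troponin C, fell from 3.94 and 4.81 FPKM to 1.33 and 1.5 FPKM (log2 -1.15, SE 0.10, adjusted p = 3.8e-04). FHL2, the relative of FHL1, fell from 17.3 and 16.8 FPKM to 12.3 and 12.4 FPKM (log2 -0.44, SE 0.04, adjusted p = 2.4e-04). ACTG1, cytoplasmic gamma actin, showed the largest fall in FPKM of any gene called, from 2172 and 2194 FPKM to 1856 and 1871 FPKM (log2 -0.23, SE 0.02, adjusted p = 5.4e-04). Tubulins, the subunits of microtubules, gave 6 lower and 2 higher of 12 tested (16.7% higher and 50% lower, median log2 -0.18). TUBB3 fell from 49.998 and 48.5 FPKM to 31.6 and 32.4 FPKM (log2 -0.61, SE 0.03, adjusted p = 1.8e-05), while TUBA4A rose (log2 0.27, SE 0.03, adjusted p = 0.0017) and TUBB6, the other member higher, had an adjusted p of 0.02 to 0.051 in the fits without 1 library. Actins and tubulins have near-identical copies and pseudogenes, and how the authors' values split such reads is not given in the sources used here.

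Basement membrane and integrin genes moved in both directions. 8 of 20 tested were higher and 7 lower (40% and 35%, median log2 0.10). COL4A5 and COL4A6, paired genes for chains of type IV collagen, rose, COL4A5 from 1.64 and 1.63 FPKM to 6.87 and 7.03 FPKM (log2 1.59, SE 0.05, adjusted p = 1.7e-06). COL4A6 rose from 0.291 and 0.229 FPKM to 1.35 and 1.31 FPKM (log2 0.89, SE 0.07, adjusted p = 1.4e-04). LAMB1 and LAMC1, laminin chains, rose by log2 0.28 and 0.28. ITGB4, the integrin chain of hemidesmosomes, fell from 14.5 and 14 FPKM to 5.69 and 6.16 FPKM (log2 -1.14, SE 0.05, adjusted p = 6.9e-06), below the wild type line (log2 -0.49, adjusted p = 3.6e-04). Without 1 library 5, 5, 5 and 5 members were higher and 2, 4, 4 and 4 lower.

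In the semaphorin list, guidance cues and their plexin and neuropilin receptors, 2 of 18 tested rose and 6 fell (median log2 0.03). The shares were 11.1% and 33.3%, against 11.7% and 11.1% of all genes tested. SEMA3A rose from 2.06 and 2.09 FPKM to 6.7 and 6.58 FPKM (log2 1.31, SE 0.05, adjusted p = 5.0e-06), above the wild type line (log2 0.87, adjusted p = 5.6e-05), and the receptor PLXNB1 rose from 2.13 and 2.3 FPKM to 3.87 and 4.2 FPKM (log2 0.65, SE 0.06, adjusted p = 6.4e-04). SEMA3C, a cue of the same class, fell from 3.64 and 3.13 FPKM to 0.454 and 0.486 FPKM (log2 -1.58, SE 0.08, adjusted p = 1.8e-05), and SEMA3B fell from 2.4 and 2.43 FPKM to 1.05 and 1.17 FPKM (log2 -0.70, SE 0.06, adjusted p = 3.4e-04).

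Among 34 cAMP and G protein signalling genes 9 were higher and 6 lower (26.5% and 17.6%, median log2 -0.03). PDE4B, which breaks down cAMP, stood at 13.3 and 13.6 FPKM in the control libraries and 2.39 and 2.44 FPKM in the K178R libraries (log2 -2.08, SE 0.04, adjusted p = 6.9e-07), and PKIB, an inhibitor of the cAMP-dependent kinase, fell from 4.4 and 4.65 FPKM to 0.778 and 0.675 FPKM (log2 -1.68, SE 0.06, adjusted p = 4.2e-06). Both were lower than in the wild type line (PDE4B log2 -0.71, adjusted p = 8.1e-05; PKIB log2 -0.29, adjusted p = 0.0077). RGS2, which shortens Gq signals, rose from 17.8 and 17.4 FPKM to 59 and 58.4 FPKM (log2 1.68, SE 0.03, adjusted p = 2.1e-07) and was above the 30.8 and 30.8 FPKM of the wild type line (log2 0.91, adjusted p = 8.5e-06). GNAQ, the Gq subunit itself, rose from 6.83 and 6.44 FPKM to 10.6 and 10.7 FPKM (log2 0.61, SE 0.04, adjusted p = 1.1e-04). AKAP12, an anchor of the cAMP-dependent kinase, rose from 121 and 125 FPKM to 163 and 164 FPKM (log2 0.41, SE 0.02, adjusted p = 4.6e-05). Without 1 library 7, 7, 6 and 7 members were higher and 4, 4, 4 and 3 lower.

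Of 13 vitamin D and retinoid genes tested 6 were higher and 3 lower (46.2% and 23.1%, median log2 0.15). CYP24A1, which breaks down active vitamin D, fell from 4.39 and 4.62 FPKM to 0.878 and 0.972 FPKM (log2 -1.52, SE 0.06, adjusted p = 6.9e-06), below the wild type line (log2 -0.95, adjusted p = 9.5e-05). The enzymes of retinoic acid moved upward, RDH10, which oxidises retinol, from 12 and 13.2 FPKM to 35.3 and 34.6 FPKM (log2 1.41, SE 0.05, adjusted p = 2.5e-06). ALDH1A3, which makes retinoic acid, rose from 47.6 and 49.5 FPKM to 91.7 and 93.3 FPKM (log2 0.92, SE 0.03, adjusted p = 2.9e-06). CYP26B1, which degrades retinoic acid, rose too, from 3.37 and 3.07 FPKM to 8.85 and 8.11 FPKM (log2 1.17, SE 0.07, adjusted p = 4.0e-05). The receptor RXRA fell (log2 -0.27, SE 0.04, adjusted p = 0.0031).

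Most p53 targets called lay below the control in the K178R line and above it in the wild type line, measured against the same controls. Of 31 tested, 17 were lower and 1, the death receptor FAS, higher in the K178R line (3.23% higher and 54.8% lower, median log2 -0.16). The wild type line had 28 higher and 1, PLK2, lower (median log2 0.61), or 25 and 1 after median-of-ratios scaling. Of all genes tested 37.6% were higher and 12.2% lower in that line before that scaling. CDKN1A, an inhibitor of the cell cycle, fell from 51 and 50.8 FPKM to 30.8 and 30.6 FPKM (log2 -0.71, SE 0.03, adjusted p = 3.9e-06), and the wild type line held 149 and 152 FPKM (log2 -2.26, adjusted p = 2.7e-08). PLK2, a kinase of the stress response, fell from 24.8 and 26.6 FPKM to 10.03 and 10.2 FPKM (log2 -1.26, SE 0.05, adjusted p = 4.8e-06). BBC3, the apoptosis protein PUMA, fell from 5.89 and 5.54 FPKM to 3.68 and 3.88 FPKM (log2 -0.49, SE 0.05, adjusted p = 6.2e-04). FAS rose from 1.61 and 1.68 FPKM to 2.75 and 2.85 FPKM (log2 0.52, SE 0.05, adjusted p = 6.5e-04). Without 1 library 11, 10, 11 and 13 of the 31 were lower.

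**Figure D5:**
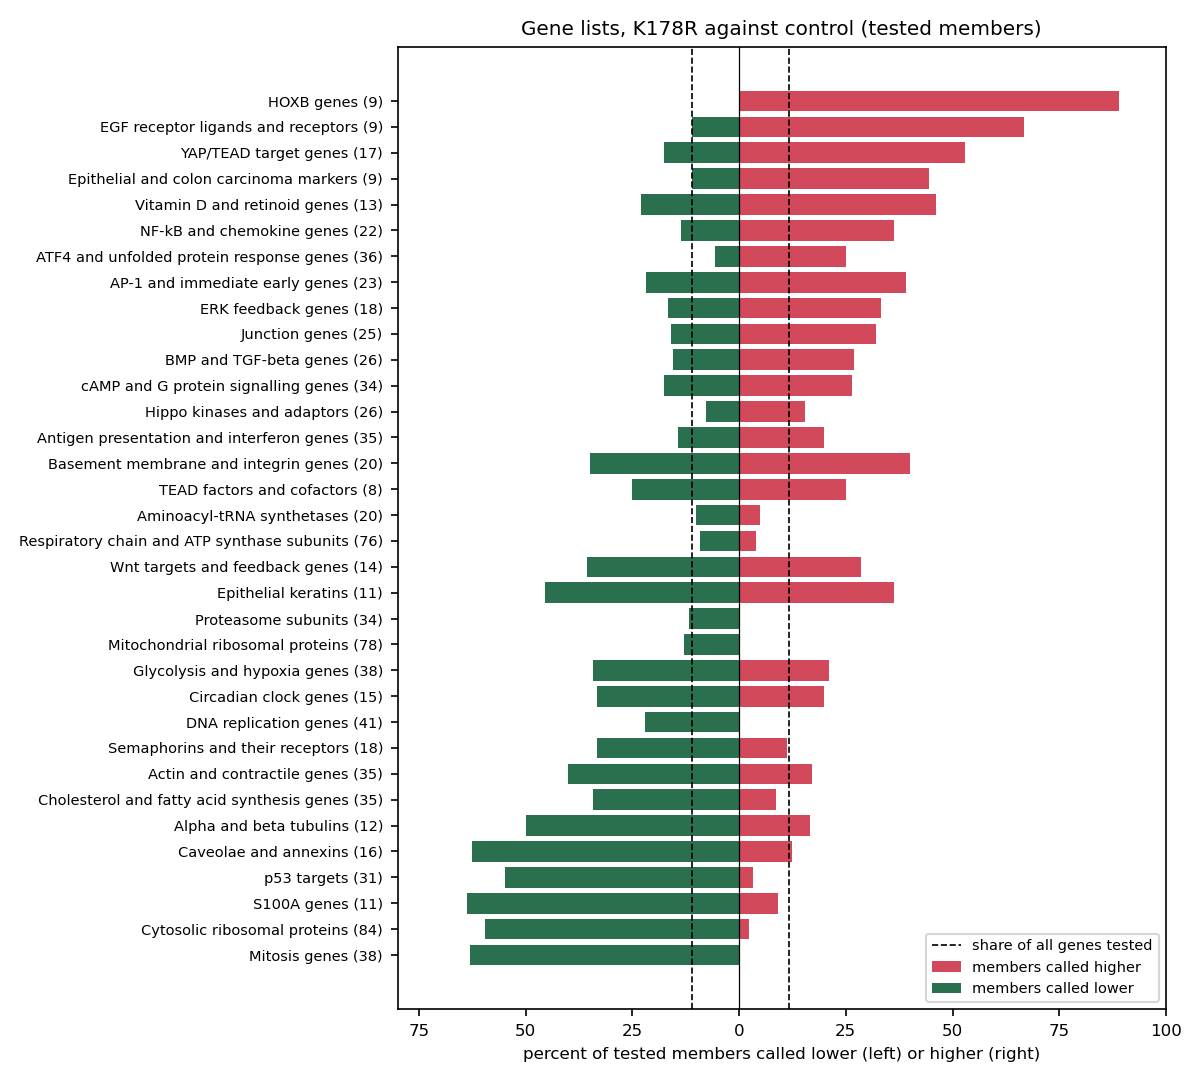
Share of the tested members of each list called higher (right, red) or lower (left, green) in the K178R line, with the number tested in parentheses and the shares over all genes tested, 11.7% and 11.1%, as dashed lines. Lists are ordered by the share called higher minus the share called lower. The fibroblast, endothelial and leukocyte marker lists, with 1 or 2 members tested, are not drawn. Mitosis genes, cytosolic ribosomal proteins and p53 targets have few or no members on the right, and HOXB genes none on the left.

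Most mitosis genes tested were lower by small steps. Of 38 tested, 24 were called lower and 0 higher by limma (0% higher and 63.2% lower, median log2 -0.14). At an unadjusted p under 0.05, 0 were higher and 27 lower. CDC20, the activator of the anaphase-promoting complex, fell from 214 and 212 FPKM to 158 and 164 FPKM (log2 -0.40, SE 0.03, adjusted p = 1.3e-04). KIF20A, a kinesin of cytokinesis, fell from 27.6 and 26.2 FPKM to 19.2 and 19.8 FPKM (log2 -0.44, SE 0.04, adjusted p = 2.9e-04). NEK2, a centrosome kinase, fell from 17.8 and 17.5 FPKM to 12.9 and 14 FPKM (log2 -0.37, SE 0.04, adjusted p = 0.0013). In the fits without 1 library 13, 14, 16 and 14 were lower. Of 41 DNA replication genes 9 were lower and 0 higher (0% higher and 22% lower, median log2 -0.03). At an unadjusted p under 0.05, 2 were higher and 15 lower. MCM5, of the replicative helicase, fell from 63.4 and 65.1 FPKM to 53.6 and 52.6 FPKM (log2 -0.27, SE 0.03, adjusted p = 0.0013), and TK1, thymidine kinase (log2 -0.25), and PCNA, the sliding clamp (log2 -0.22), were lower too. Without 1 library 4, 3, 3 and 4 were lower. In these bulk libraries fewer dividing cells and less RNA per cell cannot be told apart.

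Many cytosolic ribosomal protein genes, among the most abundant transcripts, were lower by small amounts. Of 84 tested 50 were called lower and 2 higher, RPL26L1 and RPS4Y1 (2.38% higher and 59.5% lower, median log2 -0.11). RPL4 stood at 1141 and 1136 FPKM in the control libraries and 1015 and 1042 FPKM in the K178R libraries (log2 -0.15, SE 0.02, adjusted p = 0.003). RPS21, of the small subunit, fell from 110.0 and 104 FPKM to 93.1 and 91.5 FPKM (log2 -0.21, SE 0.03, adjusted p = 0.0045). In the fits without 1 library 19, 25, 23 and 26 were lower. These genes have many processed pseudogenes, and the treatment of shared reads is not given in the sources used here. Of 78 mitochondrial ribosomal proteins 10 were lower and 0 higher (median log2 -0.04; 22 and 3 at an unadjusted p under 0.05), a share lower of 12.8% against 11.1% of all genes tested, and without 1 library 2, 4, 4 and 4 were lower. Of 76 subunits of the respiratory chain and ATP synthase 7 were lower and 3 higher, UQCRC2, UQCR11 and NDUFA6 (median log2 -0.03), both shares under those of all genes, and without 1 library 1, 6, 2 and 3 were lower and 3, 1, 1 and 3 higher. Proteasome subunits gave 4 lower and 0 higher of 34 (PSMC4, PSMD4, PSMC5 and PSMD13; median log2 -0.03; 7 lower and 0 higher at an unadjusted p under 0.05), a share lower of 11.8%, near the 11.1% of all genes, and 2, 2, 3 and 2 lower without 1 library. Of 20 aminoacyl-tRNA synthetases TARS was called higher and AARS and KARS lower (median log2 -0.03), with 0, 0, 0 and 1 higher and 0, 0, 0 and 0 lower without 1 library.

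Sterol and lipid synthesis genes were lower in 12 and higher in 3 of 35 tested (8.57% higher and 34.3% lower, median log2 -0.10). SREBF1, a master factor of lipid synthesis, fell from 24.9 and 26.4 FPKM to 18.5 and 18.5 FPKM (log2 -0.45, SE 0.04, adjusted p = 3.2e-04). INSIG1, its retention partner, fell from 14.5 and 13.8 FPKM to 10.4 and 10.9 FPKM (log2 -0.38, SE 0.06, adjusted p = 0.0034). FADS1, a fatty acid desaturase, fell from 11.4 and 11.2 FPKM to 8.59 and 8.81 FPKM (log2 -0.34, SE 0.04, adjusted p = 9.7e-04). HMGCS1, an early enzyme of the cholesterol pathway, rose from 12.5 and 12.3 FPKM to 15 and 15.4 FPKM (log2 0.27, SE 0.04, adjusted p = 0.0032). SREBF2 and ELOVL6, also called higher, had adjusted p of 0.051 to 0.12 and 0.053 to 0.13 in the fits without 1 library. Of 38 glycolysis and hypoxia genes 8 were higher and 13 lower (21.1% and 34.2%, median log2 -0.06). The glucose transporter SLC2A1 rose from 60.6 and 60.2 FPKM to 94.7 and 99.1 FPKM (log2 0.67, SE 0.03, adjusted p = 9.3e-06). The peptide hormone ADM rose from 18.3 and 16.5 FPKM to 29.4 and 33.7 FPKM (log2 0.82, SE 0.07, adjusted p = 3.7e-04). The hexokinase HK2 rose from 14.6 and 13.9 FPKM to 18 and 18.1 FPKM (log2 0.32, SE 0.04, adjusted p = 0.0012). The later enzymes PKM and GAPDH fell, PKM from 379 and 381 FPKM to 297 and 296 FPKM (log2 -0.36, SE 0.02, adjusted p = 4.1e-05). GAPDH fell from 1935 and 1896 FPKM to 1649 and 1676 FPKM (log2 -0.20, SE 0.02, adjusted p = 6.5e-04). Without 1 library 5, 4, 4 and 6 were higher and 6, 6, 8 and 8 lower.

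The list of ATF4 targets and unfolded protein response genes had 9 of 36 members higher and 2 lower, ATF5 and MTHFD2 (25% and 5.56%, median log2 0.08). SLC7A11, the cystine transporter, rose from 5.32 and 5.29 FPKM to 8.03 and 7.67 FPKM (log2 0.49, SE 0.07, adjusted p = 0.003), above the wild type line (log2 0.47, adjusted p = 0.0018), and ASNS, asparagine synthetase, rose from 29.1 and 28.2 FPKM to 34.3 and 33.1 FPKM (log2 0.23, SE 0.04, adjusted p = 0.0065). ATF5 fell from 18.3 and 19.2 FPKM to 14.5 and 15 FPKM (log2 -0.32, SE 0.05, adjusted p = 0.0062). MTHFD2 fell from 164 and 163 FPKM to 141 and 143 FPKM (log2 -0.20, SE 0.02, adjusted p = 0.0012). Without 1 library 5, 6, 7 and 5 were higher.

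NF-kB targets and chemokines were higher in 8 and lower in 3 of 22 tested (36.4% and 13.6%, median log2 0.10). In the wild type line 19 were higher (median log2 0.60), or 16 after median-of-ratios scaling. Before that scaling 37.6% of all genes tested were higher in that line. ICAM1, an adhesion receptor for leukocytes, rose from 3.02 and 3.18 FPKM to 6.35 and 6.64 FPKM (log2 0.87, SE 0.05, adjusted p = 3.2e-05). IL32, a cytokine, rose from 1.02 and 1.28 FPKM to 2.54 and 2.95 FPKM (log2 0.80, SE 0.09, adjusted p = 0.0011). CXCL16, a membrane-bound chemokine, rose from 16 and 16.9 FPKM to 28.2 and 26.8 FPKM (log2 0.71, SE 0.04, adjusted p = 4.2e-05). TNFAIP3, a feedback inhibitor of NF-kB, rose from 0.368 and 0.425 FPKM to 1.05 and 1.17 FPKM (log2 0.60, SE 0.06, adjusted p = 7.9e-04) and stayed below the wild type line (log2 -0.52, adjusted p = 8.7e-04). NFKBIA, which holds NF-kB in the cytoplasm, fell from 13.2 and 12.1 FPKM to 10.4 and 10.5 FPKM (log2 -0.25, SE 0.04, adjusted p = 0.0083). TNFAIP2 and BIRC2 were the others lower, with adjusted p of 0.034 to 0.098 and 0.024 to 0.087 in the fits without 1 library, and there 5, 5, 6 and 4 members were higher and 3, 1, 1 and 3 lower. Of 35 antigen presentation and interferon genes 7 were higher and 5 lower (median log2 0.06). The shares were 20% and 14.3%, against 11.7% and 11.1% of all genes tested. The wild type line had 29 higher and 2 lower (median log2 0.47), or 25 and 2 after median-of-ratios scaling. Of all genes tested 37.6% were higher and 12.2% lower in that line before that scaling, and 2572 and 2884 genes after it. NLRC5, the activator of class I genes, rose from 0.558 and 0.682 FPKM to 1.85 and 1.81 FPKM (log2 0.80, SE 0.08, adjusted p = 4.8e-04). HLA-B rose from 45.3 and 49.4 FPKM to 58.1 and 56.1 FPKM (log2 0.27, SE 0.04, adjusted p = 0.0051) and stayed below the wild type line (log2 -0.67, adjusted p = 8.1e-05). The antiviral membrane proteins IFITM2 and IFITM3 fell, IFITM3 from 308 and 324 FPKM to 273 and 269 FPKM (log2 -0.22, SE 0.03, adjusted p = 0.0019) and IFITM2 likewise (log2 -0.29), and both have close copies in their family. ISG15, OAS3 and IRF3 were the other members called lower, with adjusted p of 0.014 to 0.062, 0.043 to 0.08 and 0.026 to 0.14 in the fits without 1 library. Without 1 library 5, 6, 4 and 5 were higher and 2, 4, 4 and 4 lower.

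Other abundant genes were among the 10 largest differences in FPKM. Of these, MT2A, a metallothionein that binds zinc, rose from 601 and 619 FPKM to 766 and 795 FPKM (log2 0.36, SE 0.05, adjusted p = 0.0028). HMGA1, a chromatin architecture protein, rose from 685 and 685 FPKM to 804 and 775 FPKM (log2 0.20, SE 0.02, adjusted p = 0.0012). EZR, ezrin, which links actin to the membrane, rose from 337 and 339.5 FPKM to 399 and 402 FPKM (log2 0.24, SE 0.02, adjusted p = 2.9e-04). FTH1, the ferritin heavy chain that stores iron, fell from 865 and 843 FPKM to 562 and 619 FPKM (log2 -0.53, SE 0.04, adjusted p = 2.2e-04). In each of these genes the libraries of the 2 lines did not overlap.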

How the data were processed

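RNA sequencing libraries of 3 HCT116 lines, 2 per line, were prepared from Trizol-extracted total RNA by TruSeq chemistry, per the labels' protocols, and were grouped by title and genotype label. The authors deposited FPKM values for 20030 rows per library. The submitters' processing notes name Bowtie 0.12.2 and hg18, while the FPKM program, the gene annotation, the use of strand and the handling of reads matching several genes were not given in the sources used here. Of these rows 4 with repeated identifiers were dropped, from 27 turned into dates, and 4066 of the 20026 kept were at 0 in every library. Values were used as deposited, with a pseudocount of 1, and a gene was tested where 2 or more libraries reached 0.5 FPKM.

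The model was limma (version 3.58.1, R 4.3.3) with its trend option, on log2(FPKM + 1) of all 6 libraries, with the 3 line means as coefficients and 3 residual degrees of freedom. K178R minus control, K178R minus wild type and wild type minus control were two-sided tests, adjusted by Benjamini-Hochberg across 11445 genes and a threshold of 0.05. The comparisons of the 2 TEAD4 lines with control share the control libraries. The fit was checked on simulated data.

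The comparison and the gene lists were chosen with earlier results of these data known, and the HOXB, S100A and circadian clock lists were added after their values were seen. Lists, 37 in all, partly overlap and are described by counts and medians. Genes were named by rule: the 15 largest rises and falls on the log2 scale, the 10 largest differences in FPKM each way, genes under 0.1 FPKM in 1 line and at 1 or more in the other, and up to 4 per list and direction. KLF10, RNF43, ISG15, CLOCK, S100A13, RHOBTB3, COL12A1, PRF1 and members that did not pass the test were named outside it, after their values were seen. So were ANXA4, ANXA10 and EHD2. A few genes that the rule would name are not reported here. Promoter letters came from RefSeq. Alternatives were another pseudocount, no filter or a stricter one, 2 other scalings, each library left out, a replicate block, the 4 libraries alone and the control libraries averaged.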

Additional observations from a re-analysis of the deposited data

Results flagged for a closer look

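Among the genes named, 24 were called on opposite sides of the control line in the K178R and the wild type line, with the difference between the 2 lines tested directly (K178R minus wild type, limma, adjusted over all genes tested). Both comparisons use the same control libraries. The K178R line was lower than control and the wild type line higher for the p53 targets CDKN1A (log2 -2.26 between the lines), TNFRSF10C (-1.34), BBC3 (-1.28) and RPS27L (-1.04), which is also a ribosomal protein homologue. The same held for SOX9 (-1.07), the sterol reductase TM7SF2 (-1.02), the clock output factor TEF (-0.94), LGALS1 (-0.93), NFKBIA (-0.85) and TNFAIP2 (-0.80). It also held for ID1 (-0.61), OAS3 (-0.60), S100A6 (-0.51), the ATP synthase subunit ATP5MF (-0.45), BIRC2 (-0.45), RPS21 (-0.38), RXRA (-0.38), PSMD4 (-0.35), JUP (-0.34), PSMC4 (-0.30) and PSMD13 (-0.27). The K178R line was higher than control and the wild type line lower for KRT18 (0.96), KRT8 (0.84) and the fatty acid elongase ELOVL6 (0.35).

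Over all genes tested the median of K178R minus wild type was -0.08, and 0.0084 after median-of-ratios scaling. All 264 values of these differences under the alternatives kept their call. After median-of-ratios scaling 16 of the 24 genes kept opposite calls against control, and JUP, PSMC4, PSMD13, PSMD4, RPS21, RXRA, S100A6 and TEF did not.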

How the results depend on the processing

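Counts of genes called depended most on the number of libraries. Without 1 library, 732 to 798 genes were higher and 635 to 734 lower, and with the control libraries averaged into 1 sample 658 and 577, since each such fit has fewer samples. A pseudocount of 0.1 raised the genes changed by log2 1 or more to 91 higher and 63 lower. Median-of-ratios scaling gave 1252 higher and 1362 lower, and upper-quartile scaling 1209 and 1449. Among named genes 244 were called against control, of which 182 kept their call in every alternative that tested them, 62 lost it in at least 1 and 0 changed direction. The stricter filter tested 250 of the 256 named genes. Of 175 named genes called between the 2 TEAD4 lines, 129 kept the call in every alternative that tested them. Differences that turned were those of GAPDH (log2 0.0448 after median-of-ratios and 0.024 after upper-quartile scaling) and TUBB6 (0.0172 after median-of-ratios scaling), K178R minus wild type. The replicate numbers name libraries only, and same-numbered control and K178R libraries did not deviate together (r -0.03 over 11445 genes). With the replicate number as a block 1210 genes were higher and 1154 lower. The number of reads per library is unknown, so no counting error can be given, and each line has 2 libraries.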

Other observations

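Genes of the circadian clock, the feedback loop of transcription factors that gives cells a daily rhythm, were looked at after their values had been seen, so what follows is a description. Of 15 tested, 5 were called lower (NR1D1, DBP, NR1D2, TEF and CLOCK) and 3 higher (NPAS2, CRY1 and BHLHE40) in the K178R line. Their median log2 was -0.10 over the 15. The shares were 20% higher and 33.3% lower, against 11.7% and 11.1% of all genes tested. NR1D1, a nuclear receptor that represses the activators of the loop, stood at 16.3 and 16.1 FPKM in the control libraries and 7.16 and 6.49 FPKM in the K178R libraries (log2 -1.14, SE 0.05, adjusted p = 1.1e-05, limma). Its relative NR1D2 fell from 25.2 and 25.9 FPKM to 15.5 and 15.1 FPKM (log2 -0.70, SE 0.04, adjusted p = 1.9e-05). DBP and TEF, related output factors of the clock, fell from 4.81 and 4.65 FPKM to 1.69 and 2.25 FPKM (log2 -0.96, SE 0.10, adjusted p = 8.4e-04) and from 4.65 and 5.2 FPKM to 2.5 and 2.84 FPKM (log2 -0.69, SE 0.07, adjusted p = 6.2e-04). For all 4 the K178R libraries lay below the control libraries and below those of the wild type line, which held 9.21 and 8.83 FPKM of NR1D1 and 4.38 and 3.66 FPKM of DBP. NPAS2, a partner of the activator, rose from 1.07 and 1.29 FPKM to 1.88 and 1.8 FPKM (log2 0.38, SE 0.07, adjusted p = 0.0076). CRY1 and BHLHE40, repressors of the loop, had adjusted p of 0.03 to 0.15 and 0.019 to 0.099 in the fits without 1 library. The activator ARNTL was at 2.29 and 1.84 FPKM against 2.1 and 2.04 FPKM, with an adjusted p of 0.96, and PER1 at 7.27 and 8.33 FPKM against 7.84 and 7.52 FPKM, with 0.87. The time of day or of medium change at which the lines were harvested is not given in the labels.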
